A study of Mus musculus with 22 samples.

Results

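Genes that mark and drive the oligodendrocyte lineage, 10 in number, were followed in whole mouse spinal cord: Pdgfra, Cspg4, Olig1, Olig2, Sox10, Nkx2-2, Gpr17, Bmp4, Enpp6 and Myrf. They were taken by name, as genes of precursor and differentiating oligodendrocytes, and all 10 were found among the 21995 genes measured. All 10 passed the filter on low counts in both comparisons. RNA-seq was performed on 22 spinal cords of C57BL/6 mice. The aging experiment compared 8 wild-type males of 18 to 24 months (Old) with 8 wild-type males of 3 to 4 months (Young). The amyotrophic lateral sclerosis experiment compared 3 G93a mice, which carry a high-copy human SOD1 transgene with a disease mutation, with 3 wild-type mice (Control), all at 5 to 6 months. Each of these groups held 2 females and 1 male, and the labels do not give the sex of single libraries. The aging libraries were made with a KAPA kit and the disease libraries with a TruSeq kit, so levels were compared only within each experiment. Counted reads per library were 5078092 to 9358055 in the aging experiment and 9675610 to 13219797 in the disease experiment. Sod1, whose mouse gene is close in sequence to the human transgene, was higher in G93a than in Control (log2 fold change 0.95, SE 0.09, adjusted p = 0.000241). Here and below, fold changes and adjusted p-values are from edgeR's quasi-likelihood test, adjusted by Benjamini-Hochberg over every gene tested, and a gene is said to rise or fall only at an adjusted p under 0.05.

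Oligodendrocyte precursor cells (OPCs) persist in the adult spinal cord, divide, and can mature into the oligodendrocytes that wrap axons in myelin. A precursor that leaves the cell cycle passes through a committed stage, then through a newly formed oligodendrocyte, before it makes myelin. Pdgfra encodes the receptor for the growth factor that keeps precursors dividing, and Cspg4 encodes the proteoglycan NG2 on their surface. The transcription factors Olig1, Olig2 and Sox10 are present along the whole lineage, Nkx2-2 acts at the onset of differentiation and Myrf switches on myelin genes. Gpr17, a G protein-coupled receptor, is restricted to the committed stage and is shut off before myelination. Bmp4 encodes a secreted bone morphogenetic protein, made by committed precursors, that can hold back maturation. Enpp6, a choline phosphodiesterase, marks newly formed oligodendrocytes. Several are not exclusive to the lineage: Cspg4 is also made by pericytes, Pdgfra by fibroblasts of the meninges and vessels, and Sox10 by Schwann cells of the nerve roots. In bulk tissue, fewer cells of a type and less RNA per cell cannot be told apart.

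All 10 are protein-coding genes, placed here on GRCm38 (mm10). Pdgfra (ENSMUSG00000029231) lies at chr5:75152292-75198215 on the plus strand. Cspg4 (ENSMUSG00000032911) lies at chr9:56865033-56899870 on the plus strand. Olig2 (ENSMUSG00000039830) lies at chr16:91225457-91228677 and Olig1 (ENSMUSG00000046160) at chr16:91269772-91271933, neighbours on the same plus strand. Sox10 (ENSMUSG00000033006) lies at chr15:79154908-79165240, Myrf (ENSMUSG00000036098) at chr19:10208272-10240748 and Nkx2-2 (ENSMUSG00000027434) at chr2:147177546-147194243, each on the minus strand. Bmp4 (ENSMUSG00000021835) lies at chr14:46383520-46390669 on the minus strand and Enpp6 (ENSMUSG00000038173) at chr8:46986887-47096762 on the plus strand. The exons of Gpr17 (ENSMUSG00000052229) share 188 of 5195 bases (3.62%) with Lims2 on the opposite strand, and whether the counting used strand is not given in the sources used here. Lims2 itself did not pass the test in either comparison (log2 fold change -0.06, adjusted p = 0.714 in aging, and 0.30, adjusted p = 0.135 in G93a mice). Exons of Bmp4 share 89 of 2248 bases with Gm15217, which had at most 1 count in any library.

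Promoter sequence is shown for 3 of the genes whose counts changed, so that the letters before their start sites can be read beside their values. The stretches are from RefSeq on GRCm38.p6. Each begins 250 bases before the RefSeq start and ends at the base before the gene start given above, so that no annotated exon is shown. Capitals mark the only match to a SOX motif (ACAAAG or ACAATG, either strand), the letters that Sox10 and its relatives are known to bind.
Enpp6, chr8:46986637-46986886, plus strand: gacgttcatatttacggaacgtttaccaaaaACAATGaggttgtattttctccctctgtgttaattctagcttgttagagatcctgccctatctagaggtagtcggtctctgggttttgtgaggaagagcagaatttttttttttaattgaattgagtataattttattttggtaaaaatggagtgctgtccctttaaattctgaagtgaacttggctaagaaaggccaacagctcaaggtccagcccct
Olig2, chr16:91225300-91225456, plus strand: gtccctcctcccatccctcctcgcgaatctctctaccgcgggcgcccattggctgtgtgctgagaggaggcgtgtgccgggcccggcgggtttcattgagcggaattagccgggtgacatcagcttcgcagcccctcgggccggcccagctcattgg
Cspg4, chr9:56864854-56865032, plus strand: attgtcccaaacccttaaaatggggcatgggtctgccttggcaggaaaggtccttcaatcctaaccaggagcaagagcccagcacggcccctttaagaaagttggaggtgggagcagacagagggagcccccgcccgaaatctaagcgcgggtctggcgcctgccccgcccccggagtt
Promoters of 6 of the 10 genes were in the RefSeq table (Pdgfra, Cspg4, Olig2, Nkx2-2, Bmp4 and Enpp6), and each was searched over the 250 bases before the RefSeq start. A SOX motif was found in 2 of the 6, Enpp6 and Olig2, where the match lay past the stretch shown, against 25.2% of all 32851 promoters. An E-box (CANNTG), the letters bound by Olig1 and Olig2, was found in 3 of the 6 against 66.2% of all promoters. Letters bound by Myrf (CTGGCAC or CTGGTAC) were in 0 of the 6 against 5.93%, and letters bound by Nkx2-2 (TCAAGTG or TTAAGTG) in 1 of the 6, its own promoter, against 4.67%.

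Levels between genes were compared per transcript length, as the mean of the deposited log2(FPKM + 1) values. Olig1 was the highest of the 10 in every group, at 6.69 ± 0.13 (SD, n = 8) in Young and 6.89 ± 0.10 (SD, n = 3) in Control. In Young cords Myrf (5.71 ± 0.10) and Sox10 (5.62 ± 0.07) came next and overlapped each other, followed by Olig2 at 4.67 ± 0.14 and Enpp6 at 4.18 ± 0.15. Gpr17 (3.47 ± 0.18), Nkx2-2 (3.45 ± 0.24) and Pdgfra (3.13 ± 0.12) formed a run of overlapping neighbours above Cspg4 (2.61 ± 0.12). Bmp4 was lowest in every group, at 0.96 ± 0.14 in Young. Gpr17 was at rank 6 in Young and Control, rank 9 in Old at 2.61 ± 0.22 and rank 5 in G93a at 4.09 ± 0.29. Sox10 stood above Myrf in Old, where their ranges overlapped. Nkx2-2 went from rank 7 in Control to rank 9 in G93a, below Pdgfra and Cspg4. In Control the range of Nkx2-2 (2.90 to 3.65) overlapped that of Pdgfra but not that of Cspg4 (2.43 to 2.65), while in G93a it overlapped that of Cspg4. In Old the range of Gpr17 over libraries overlapped that of Cspg4, the gene above it, and in G93a that of Enpp6, the gene below it.

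**Figure D1:**
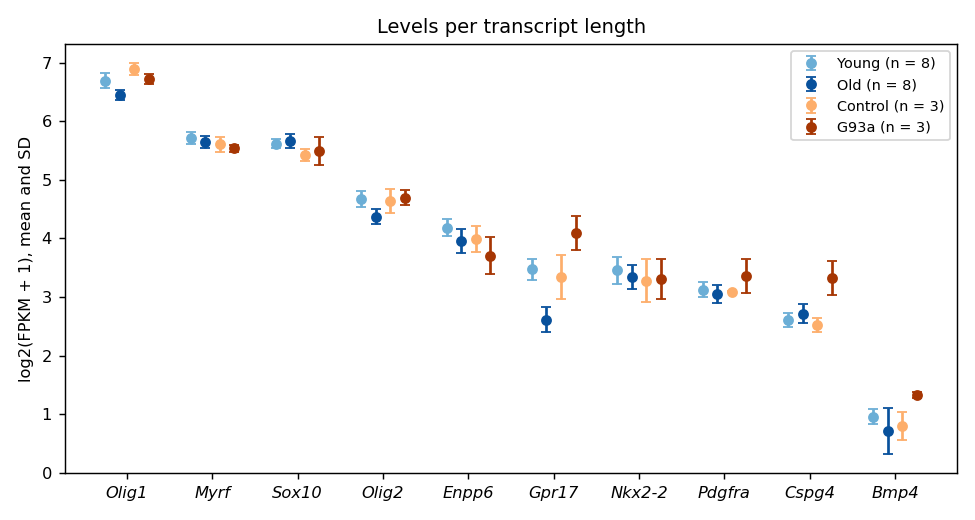
Mean log2(FPKM + 1) of each gene (y axis) in the 4 groups, with bars of 1 SD over 8 Young, 8 Old, 3 Control and 3 G93a libraries; genes are ordered by their level in Young. Gpr17 drops from 3.47 in Young to 2.61 in Old and stands at 4.09 in G93a against 3.34 in Control, while Olig1 is highest and Bmp4 lowest throughout.

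The first question was how these genes differ between old and young wild-type cords. Of the 10 genes, 4 fell with age (Gpr17, Enpp6, Olig1 and Olig2) and 0 rose, where 12.9% of all 13647 genes tested fell and 13.5% rose (26.4% in either direction). The median log2 fold change of the 10 was -0.17, against -0.00273 for all genes. The 4 were Gpr17 of the committed stage, Enpp6 of newly formed oligodendrocytes and the lineage transcription factors Olig1 and Olig2. The precursor surface genes Pdgfra and Cspg4 did not pass the test. Neither did Bmp4 of committed precursors or the factors Sox10, Myrf and Nkx2-2. Stages were not tested against each other. Longer lists of precursor and of committed-stage genes, given below, had similar median log2 fold changes (-0.13 and -0.14). None of the 10 also passed the log2 fold change of 1 that the study required, which 2.22% of all genes did.

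The committed-stage receptor Gpr17 showed the largest change of the 10. In Young cords its level ran from 45.6 through a median of 52.8 to 68.4 CPM (counts scaled to a common library total, after TMM adjustment of each total). In Old cords it ran from 23.5 through 27.8 to 36.3 CPM, so that all 8 Old libraries lay below all 8 Young ones. The means were 28.5 ± 4.15 CPM (SD, n = 8) in Old and 56.3 ± 7.66 CPM (SD, n = 8) in Young, from 156 to 572 counts per library. The log2 fold change was -0.98 (SE 0.09, adjusted p = 1.46e-08), a fold of 0.508 with a 95% interval of 0.448 to 0.576. It ranked 9 from the most negative log2 fold change of the 13647 genes tested. Groups that do not overlap were found for 5.33% of all genes and for 2 of these 10, Gpr17 and Olig1.

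Enpp6, the marker of newly formed oligodendrocytes, ran from 36.9 through 41.2 to 45.96 CPM in Old and from 45.3 through 53.7 to 65.8 CPM in Young. Of the 8 Old libraries, 7 lay below every Young library. Enpp6 fell with age (log2 fold change -0.39, SE 0.06, adjusted p = 8.47e-05), but not on the deposited log2(FPKM + 1) values (-0.23, adjusted p = 0.0715 by limma).

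Bmp4 sat near the bottom of what was counted, at 1 to 21 counts per library. It ran from 1.11 through 1.73 to 1.94 CPM in Young and from 0.154 through 1.10 to 2.29 CPM in Old. Its spread in Old, with a coefficient of variation of 68.4% against 17.1% in Young, covered the whole Young range, with 2 Old libraries above and 4 below every Young one. Its log2 fold change of -0.45 (SE 0.32, adjusted p = 0.31) did not pass the test, and a 3-count floor in these libraries is 0.321 to 0.591 CPM.

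Among the transcription factors, both Olig genes fell. Olig1 ran from 175.7 through 201.6 to 208.3 CPM in Old and from 209.3 through 230.8 to 263.6 CPM in Young, and the groups did not overlap. Its change was small, a log2 fold change of -0.24 (SE 0.05, adjusted p = 0.000584). Olig2 ran from 42.1 through 51.4 to 60.3 CPM in Old and from 56.5 through 60.5 to 72.5 CPM in Young, and 7 of 8 Old libraries lay below every Young one. Its log2 fold change was -0.31 (SE 0.07, adjusted p = 0.00142).

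The other factors kept overlapping ranges. Sox10 had a median of 141.6 CPM in Old (124.0 to 179.8) and 138.3 CPM in Young (124.4 to 147.9), with a log2 fold change of 0.06 and a 95% interval of -0.06 to 0.18. Myrf had a median of 264.7 CPM in Old (244.9 to 307.7) and 275.9 CPM in Young (255.1 to 305.2), with a log2 fold change of -0.05 and an interval of -0.16 to 0.05. Nkx2-2 had a median of 18.4 CPM in Old and 19.4 CPM in Young, with a log2 fold change of -0.03 and an interval of -0.24 to 0.17. The adjusted p-values of these 3 were 0.47, 0.447 and 0.831.

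The precursor surface genes overlapped as well. Pdgfra ran from 44.9 through 49.4 to 54.8 CPM in Old and from 48.2 through 53.2 to 58.9 CPM in Young (log2 fold change -0.10, interval -0.21 to 0.01, adjusted p = 0.181). Cspg4 ran from 29.2 through 34.4 to 44.2 CPM in Old and from 29.5 through 33.1 to 37.8 CPM in Young (log2 fold change 0.09, interval -0.06 to 0.24, adjusted p = 0.409). The counts of Gpr17 relative to those of Pdgfra in the same library did not overlap between the groups, at 0.485 to 0.767 in Old and 0.827 to 1.28 in Young. The same held for Gpr17 relative to Sox10, at 0.134 to 0.261 in Old and 0.357 to 0.486 in Young. Relative to Enpp6, which also fell, the ranges overlapped, at 0.523 to 0.849 in Old and 0.802 to 1.301 in Young. Gpr17 alone already separated the groups, so the lack of overlap relative to Pdgfra and Sox10 mostly restates its values. These ratios do not depend on how libraries were scaled.

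**Figure D2:**
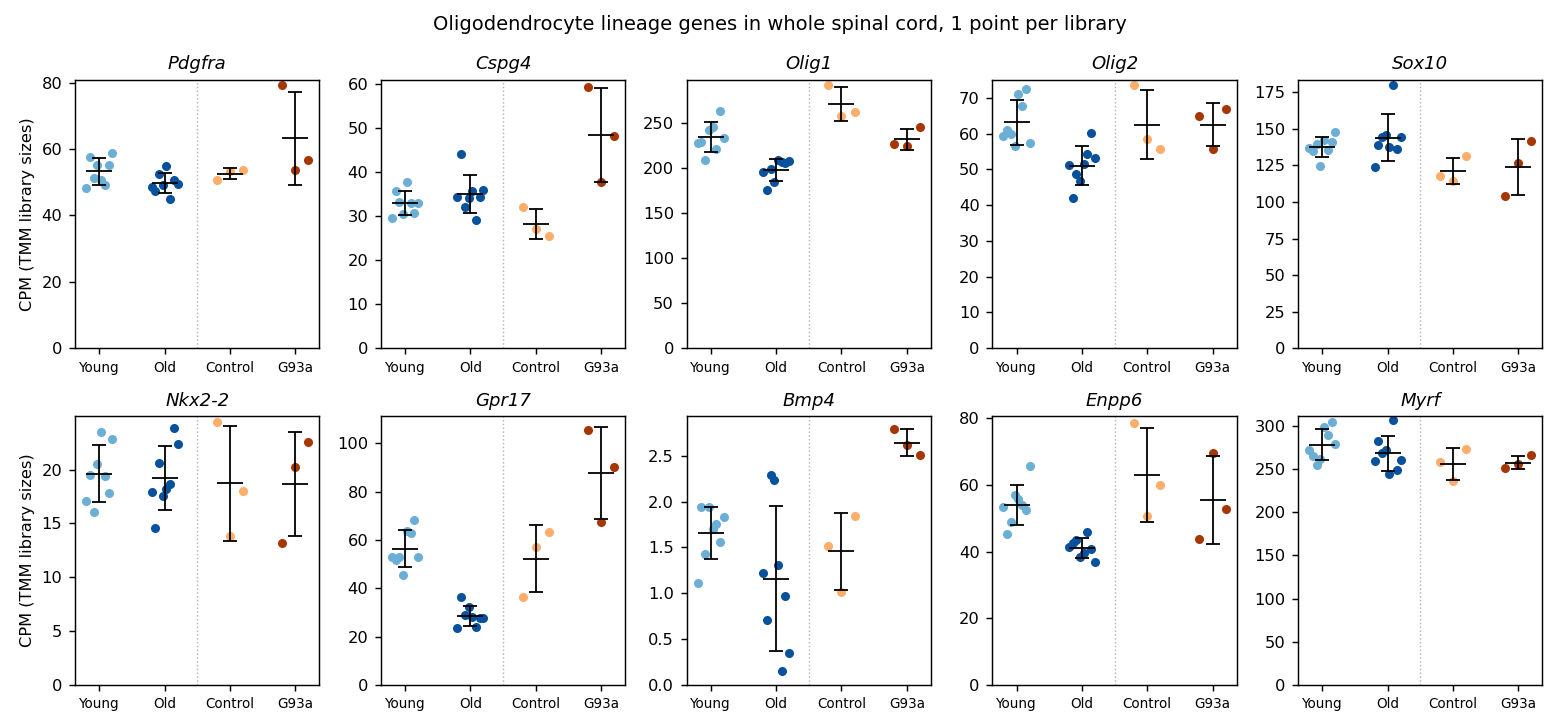
Level of each of the 10 genes in CPM (y axis, from 0), with 1 point per library; horizontal marks are means and bars 1 SD, and the dotted line separates the aging experiment (Young, Old; 8 libraries each) from the disease experiment (Control, G93a; 3 each). All Old points for Gpr17 (at most 36.3) lie under all Young points (at least 45.6), and all G93a points (at least 67.5) lie over all Control points (at most 63.2).

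The second comparison asked the same of G93a and Control cords. Of the 10 genes, 2 rose (Cspg4 and Gpr17) and 0 fell, where 18.4% of all 14386 genes tested rose and 15.5% fell (33.9% in either direction). The median log2 fold change of the 10 was 0.02, against 0.00306 for all genes. Ranges of the 3 libraries did not overlap for 5 of the 10 genes, Pdgfra, Cspg4, Olig1, Gpr17 and Bmp4, which is close to the 50.4% of all genes for which this was so. None of the 10 also passed a log2 fold change of 1, which 9.7% of all genes did.

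Cspg4, the NG2 proteoglycan gene, was at 37.9, 48.2 and 59.3 CPM in the 3 G93a libraries and at 25.4, 27.1 and 32.2 CPM in the 3 Control libraries. All G93a libraries lay above all Control libraries. Cspg4 rose by a log2 fold change of 0.78 (SE 0.17, adjusted p = 0.00824), a fold of 1.72 with a 95% interval of 1.33 to 2.23. The call held with any 1 of the 6 libraries left out (0.62 to 0.94, adjusted p at most 0.0419). Of 10 markers of pericytes, the other source of Cspg4, 5 rose in G93a cords and 1 fell. Over all genes, 18.4% rose and 15.5% fell. The marker that fell was Rgs5 (log2 fold change -0.50, adjusted p = 0.0125). Anpep (2.66) and Notch3 (0.60) were among those that rose. The summed level of the 10 was 258.4 to 297.5 CPM in G93a and 248.1 to 329.6 CPM in Control, and its part in the Cspg4 result was not tested.

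Pdgfra was at 53.8, 56.6 and 79.1 CPM in G93a and at 50.6, 53.4 and 53.6 CPM in Control. The ranges did not overlap, but 1 G93a library stood well above the other 2. The log2 fold change of 0.27 (SE 0.14, adjusted p = 0.179) did not pass the test. It was 0.08 (adjusted p = 0.61) without the highest G93a library and 0.37 (adjusted p = 0.0351) without the lowest. Where 18.4% of all genes rose in G93a cords, 2 of 8 fibroblast markers tested did so, Col1a1 (log2 fold change 1.35, adjusted p = 0.0103) and Fbln1 (0.67, adjusted p = 0.042). The 10 listed summed to 83.6 to 154.1 CPM in G93a and 75.5 to 83.6 CPM in Control, highest in the same G93a library as Pdgfra, and their part in the Pdgfra values was not tested.

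Gpr17 was at 67.5, 90.1 and 105.7 CPM in G93a and at 36.5, 56.9 and 63.2 CPM in Control. Every G93a library lay above every Control library, by a gap smaller than the range within either group. Gpr17 rose by a log2 fold change of 0.75 (SE 0.21, adjusted p = 0.0256), a fold of 1.68 with a 95% interval of 1.20 to 2.35. This call rested on few libraries. The log2 fold change was 0.54 (adjusted p = 0.0679) without the lowest Control library, 0.81 (adjusted p = 0.0635) without the middle one, 0.60 (adjusted p = 0.066) without the highest G93a library and 0.73 (adjusted p = 0.0856) without the middle one. The counts of Gpr17 relative to Pdgfra were 1.25 to 1.59 in G93a and 0.722 to 1.18 in Control, and relative to Sox10 they were 0.533 to 1.02 in G93a and 0.31 to 0.498 in Control, without overlap in either case. Relative to Enpp6 they overlapped, at 0.968 to 2.42 in G93a and 0.466 to 1.12 in Control. Cspg4 relative to Pdgfra also had no overlap, at 0.704 to 0.851 in G93a and 0.474 to 0.636 in Control. Olig1 relative to Olig2 overlapped, at 3.49 to 4.02 in G93a and 3.97 to 4.71 in Control. With 3 libraries a group, ranges did not overlap for 50.4% of single genes, so such separation is common.

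Bmp4 was at 2.51, 2.62 and 2.80 CPM in G93a and at 1.01, 1.52 and 1.84 CPM in Control, from 12 to 33 counts per library. The ranges did not overlap, and the log2 fold change of 0.85 (SE 0.31, adjusted p = 0.0612) did not pass the test. Olig1 was at 224.1, 226.6 and 245.4 CPM in G93a and at 257.1, 262.3 and 292.0 CPM in Control, below without overlap. Its log2 fold change of -0.22 (SE 0.09, adjusted p = 0.0914) also did not pass. It did in 1 fit of all 22 libraries (-0.25, adjusted p = 0.0131), where most libraries that set the spread were of the aging experiment.

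The remaining 5 genes had overlapping ranges, with wide intervals at 3 libraries a group. Their log2 fold changes were near 0 except for that of Enpp6. Olig2 was at 0.00 (95% interval -0.28 to 0.28), Sox10 at 0.03 (-0.24 to 0.31), Myrf at 0.01 (-0.19 to 0.21) and Nkx2-2 at 0.00 (-0.55 to 0.55). Enpp6 was at 43.6, 52.7 and 69.7 CPM in G93a and at 50.8, 59.9 and 78.5 CPM in Control (log2 fold change -0.19, interval -0.63 to 0.25). Their adjusted p-values ran from 0.488 to 0.995. Of 7 Schwann cell markers tested, 2 rose in G93a cords, Egr2 and Drp2, where 18.4% of all genes rose. The 10 listed summed to 98.8 to 257.9 CPM in G93a and 71.3 to 85.8 CPM in Control. The highest sum was in the library with the lowest Sox10 of the G93a group. Drp2 alone had means of 93.7 CPM in G93a and 58.6 CPM in Control. Egr2 had a mean of 0.196 CPM in Control, below the 3-count floor of 0.227 to 0.281 CPM in that group. It can pass the filter on low counts through the G93a libraries alone.

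**Figure D3:**
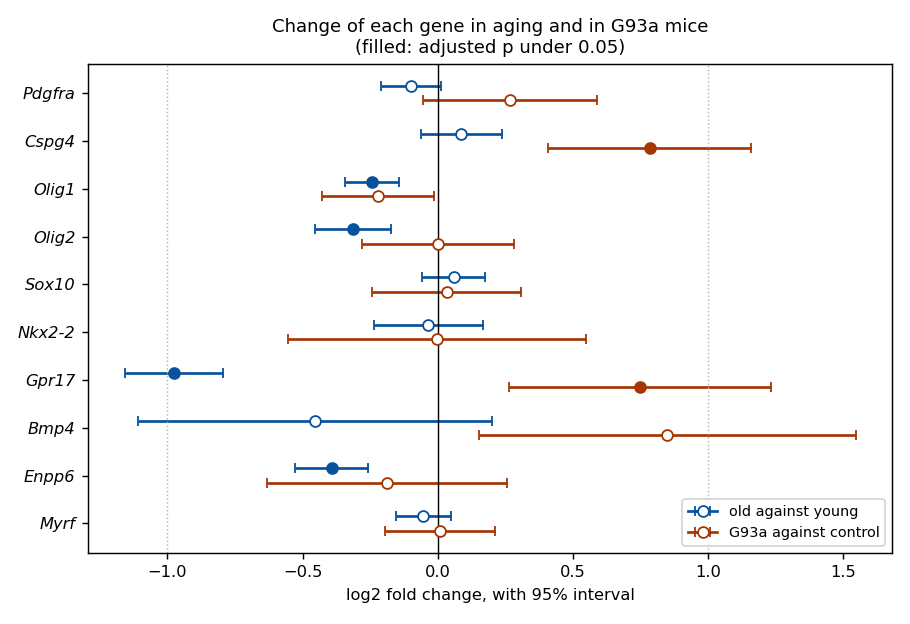
Log2 fold change of each gene (x axis) with its 95% interval in old against young cords (blue, 8 libraries each) and in G93a against control cords (brown, 3 each); filled points passed an adjusted p of 0.05 and dotted lines mark log2 fold changes of -1 and 1. Gpr17 lies at -0.98 in aging and 0.75 in G93a mice, Cspg4 at 0.09 and 0.78, and Olig1 at -0.24 and -0.22.

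The 2 experiments share no libraries, so their changes were tested against each other in 1 fit of all 22 libraries, as the G93a change minus the aging change. This difference passed the test for 3 of the 10 genes, Gpr17, Cspg4 and Pdgfra, all more positive in G93a mice, where 11.6% of all 14502 genes tested were more positive and 14.2% more negative (25.8% in either direction). That split was 1682 against 2063 genes, and 2099 against 1432 when library totals were used without factors, with the same 3 of the 10 genes past the test. The fit took 1 estimate of spread per gene from all 22 libraries, most of them of the aging experiment. For these 3 genes the SE of the difference was smaller than that of the G93a change alone. It was 0.205 against 0.213 for Gpr17, 0.1594 against 0.1655 for Cspg4 and 0.125 against 0.142 for Pdgfra. The p-values of the difference can therefore be too small. Kit, age and sex differ between the experiments and cannot be told apart from this difference. For Gpr17 it was 1.70 on the log2 scale (SE 0.21, adjusted p = 5.48e-06), and 1.496 to 1.86 with any 1 of the 6 libraries of the disease experiment left out (adjusted p at most 4.15e-05). For Cspg4 it was 0.67 (SE 0.16, adjusted p = 0.00278). For Pdgfra it was 0.34 (SE 0.13, adjusted p = 0.0467), but 0.15 (adjusted p = 0.363) without the highest G93a library. Leaving out any of the 3 Control libraries also lost the call for Pdgfra, at 0.31 to 0.36 (adjusted p = 0.110, 0.0762 and 0.0687). The difference was 1.28 for Bmp4 (SE 0.53, adjusted p = 0.0756) and 0.29 for Olig2 (SE 0.14, adjusted p = 0.124). Olig2 passed without the Control library in which it was highest (0.42, adjusted p = 0.0313), and Bmp4 passed with DESeq2 (1.303, adjusted p = 0.0481). For Olig1 it was 0.00, with a 95% interval of -0.20 to 0.19.

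Gpr17 was the only one of the 10 that fell in aging and rose in G93a mice, each at an adjusted p under 0.05. This held for 33 of the 13610 genes tested in both comparisons (0.242%). All 33 also passed the test of the difference, which opposite calls in the same libraries made nearly certain, so it adds no support. Gpr17 had the largest difference of the 33, followed by Bgn at 1.41. The 33 also held 5 genes of the lists described below, Cldn11 (0.91), Sox11 (0.88), Vcan (0.88), Frmd4a (0.66) and Fyn (0.42), and the astrocyte marker Gja1 (0.74), chosen for naming after their values were seen.

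**Figure D4:**
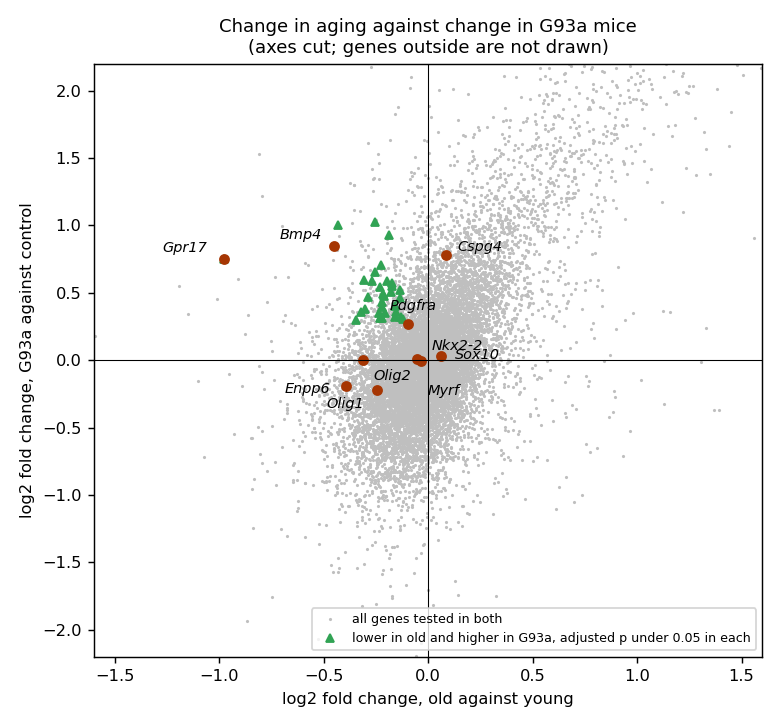
Log2 fold change in old against young cords (x axis) and in G93a against control cords (y axis) for every gene tested in both (grey), with the 10 lineage genes in brown and the genes that fell in aging and rose in G93a mice as green triangles (Gpr17, one of them, is drawn in brown). Gpr17 lies apart at -0.98 and 0.75; genes outside the axis limits are not drawn.

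Other genes of the same stages gave a wider view. Of 20 other OPC markers, 4 fell with age and 0 rose, with a median log2 fold change of -0.13, where 12.9% of all genes fell. The leading one was Tnr, an extracellular matrix protein (log2 fold change -0.49, SE 0.06, adjusted p = 3.75e-06), followed by Cacng4 (-0.28) and the proteoglycan Vcan (-0.25). In G93a cords 6 of the 20 rose and 1 fell, with a median of 0.23, where 18.4% of all genes rose and 15.5% fell. Among them the transcription factor Sox6 (0.74, adjusted p = 0.00103) and the matrix protein Matn4 (1.07, adjusted p = 0.00935) rose and the Notch ligand Dll1 fell (-0.95, adjusted p = 0.00737). What astrocytes and other cells of the cord, whose markers also moved, contributed to these changes was not tested. The summed level of the 20 was 573.7 to 688.1 CPM in Old against 686.7 to 758.5 CPM in Young, which overlap, and 851.8 to 889.1 CPM in G93a against 726.0 to 767.0 CPM in Control, which do not, as for 50.4% of single genes.

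Of 17 other genes of committed precursors and newly formed oligodendrocytes tested, 4 fell with age and 0 rose, where 12.9% of all genes fell. The median log2 fold change was -0.14. The 4 were Kif19a (-0.66, adjusted p = 0.000272), Frmd4a (-0.18), the kinase Fyn (-0.13) and, named after its value was seen, Sox11 (-0.31). In G93a cords 9 of the 17 rose and 0 fell, with a median of 0.49, where 18.4% of all genes rose. Rras2 (1.29, adjusted p = 0.00216), the calcium channel gene Itpr2 (0.79, adjusted p = 0.00355) and the transcription factor Sox4 (0.99, adjusted p = 0.005) had the smallest adjusted p-values. The summed level of the 18 listed overlapped in both comparisons, at 1581 to 2079 CPM in Old against 1483 to 1769 CPM in Young and at 1562 to 1969 CPM in G93a against 1494 to 1632 CPM in Control. Several of these genes are also expressed in other cells of the cord.

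Mature oligodendrocyte genes were split in both comparisons. Of 24 such genes, 10 fell and 4 rose with age, where 12.9% of all genes fell and 13.5% rose. The median log2 fold change of the 24 was -0.15. Among the 10 that fell were Ugt8a, which makes the myelin lipid galactosylceramide (-0.77, SE 0.07, adjusted p = 1.24e-08), and Mal (-0.52, SE 0.06, adjusted p = 5.83e-07). In G93a cords 2 rose and 4 fell, with a median of -0.20, where 18.4% of all genes rose and 15.5% fell. The tight junction gene Cldn11 (0.71, adjusted p = 0.00287) and the transferrin gene Trf (0.60, adjusted p = 0.0033) rose, and Ugt8a fell (-0.82, adjusted p = 0.0161).

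**Figure D5:**
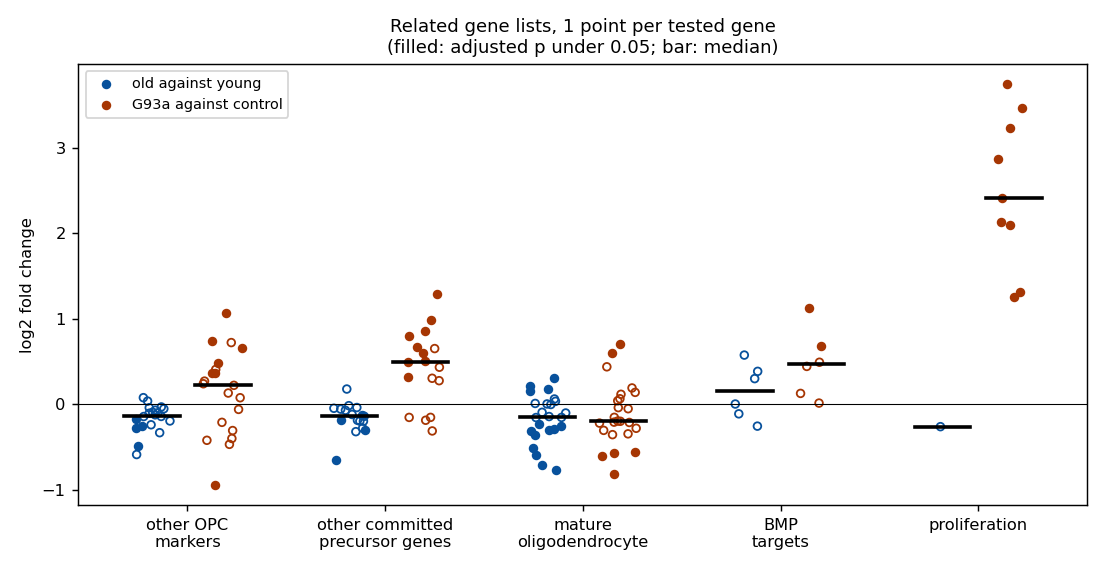
Log2 fold change (y axis) of each tested gene of 5 related lists in old against young (blue) and G93a against control (brown) cords; filled points passed an adjusted p of 0.05 and bars are medians. The committed precursor list has medians of -0.14 in aging and 0.49 in G93a mice, and the mature list -0.15 and -0.20. All 9 proliferation genes tested in G93a mice are filled and above 0, but some can pass the filter on low counts through the G93a libraries alone.

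In the pathway of Pdgfra, 1 of 6 other ligands and receptors rose with age, Pdgfrl (log2 fold change 0.61, adjusted p = 0.0129), and 1 rose in G93a cords, Pdgfrb (0.44, adjusted p = 0.0305), the receptor of pericytes. Of 8 other genes listed with Bmp4 by name or family, which include Bmp1, a protease that acts on matrix and on BMP inhibitors, 2 rose with age, Bmp6 (0.74, adjusted p = 0.000148) and Bmp7 (0.57, adjusted p = 0.00666), and 2 fell, among them Gdf10 (-0.75, adjusted p = 0.00348). In G93a cords Bmp1 rose by 1.27 and Bmp6 by 1.07, and Gdf10 fell by 1.75 on the log2 scale. Of 10 BMP receptors and SMADs, 1 rose with age (Smad1, 0.20). In G93a cords 2 of them rose (Bmpr1b, 0.77, and Smad5, 0.31) and 1 fell (Smad9, -0.35). Of 6 targets of BMP signalling, 0 passed the test in aging and 2 rose in G93a cords, Id3 (1.13, adjusted p = 0.00436) and Id4 (0.68, adjusted p = 0.00803). Of 8 BMP inhibitors tested, 0 passed in aging, while in G93a cords 3 rose, among them Twsg1 (0.60) and Bambi (1.09), and 1 fell. Over all genes tested, 13.5% rose and 12.9% fell with age, and 18.4% rose and 15.5% fell in G93a cords. These small lists were not tested as sets.

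Markers of other cells of the cord moved with the groups and are given beside these results. Over all genes tested, 13.5% rose and 12.9% fell with age, and 18.4% rose and 15.5% fell in G93a cords. In aging, 9 of 10 microglia markers rose and their summed level was 538.6 to 903.0 CPM in Old against 341.3 to 382.5 CPM in Young. Of 8 astrocyte markers, 3 rose, among them Gfap (log2 fold change 0.69, adjusted p = 1.31e-06), and 1 fell (Gja1, -0.23). The sum of the 8 was 8205 to 9040 CPM in Old against 7336 to 7960 CPM in Young. Gfap alone had means of 2977 CPM in Old and 1843 CPM in Young, and the median log2 fold change of the 8 was -0.0068. Of 8 neuron markers, 4 fell, and their sum was 5467 to 7615 CPM in Old against 6648 to 7720 CPM in Young. Of the markers of pericytes, fibroblasts and Schwann cells, 1 of 10, 0 of 7 and 1 of 3 tested rose with age and 0 fell, and 1 Old library stood out with summed Schwann cell markers of 153.0 CPM. In G93a cords, 8 of 10 microglia and 5 of 8 astrocyte markers rose, with sums of 1432 to 2561 CPM against 351.5 to 424.3 CPM and of 12428 to 19257 CPM against 6790 to 7355 CPM. Gfap alone had means of 9258 CPM in G93a and 1758 CPM in Control. Of 8 neuron and 6 motor neuron markers, 6 and 4 fell in G93a cords. All 9 proliferation genes tested rose in G93a cords, with Mki67 at 3.23 and Top2a at 3.47 on the log2 scale. Control means were low, at 1.14 CPM for Mki67, 1.02 CPM for Top2a and 0.657 CPM for Cenpf. The filter on low counts can keep such genes through the G93a libraries alone, so this count was partly fixed by the filter. In aging 1 of the 10 listed was tested and did not pass, so the counts of calls in the 2 comparisons cannot be set against each other for this list. Dividing microglia and dividing precursors share these genes. The G93a library with the highest Pdgfra, Cspg4, Gpr17 and Bmp4 also had the highest microglia, astrocyte, fibroblast and Schwann cell sums and the lowest neuron sum of its group. Without it, Cspg4 was at 0.62 (adjusted p = 0.0149) and Gpr17 at 0.60 (adjusted p = 0.066). None of the listed markers of any cell type was at 0 in all libraries. The part of these other cells in the changes of the 10 genes was not tested.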

How the data were processed

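RNA of whole spinal cords was sequenced by the authors, aligned with STAR to mm10 and summarised per gene with RSEM on Ensembl gene models; SAMtools 1.3 is named in the submitters' processing notes. The deposited expected counts are whole numbers, and the deposited log2 values are log2(FPKM + 1), which the authors made from the same reads. Columns name a group but carry no replicate number. The 10 genes and all gene lists were chosen with earlier results of these data known.

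Each comparison was fitted on its own 2 groups with edgeR 4.0.16 (quasi-likelihood test, TMM scaling, filterByExpr with a minimum count of 10) in R 4.3.3, with p-values adjusted by Benjamini-Hochberg across every gene in the fit and a call at an adjusted p under 0.05. The difference between comparisons was 1 contrast in a fit of 22 libraries. Alternatives used RLE, upper quartile or no scaling factors, DESeq2 1.42.0, limma 3.58.1, other filters and each library left out. Each library is 1 animal. No 2 libraries of a group agreed within sampling noise, since the smallest chi-square per degree of freedom was 2.57. Libraries held 5078092 to 13219797 counts, and a floor of 3 counts lay between 0.227 and 0.591 CPM. This floor covers counting error only. Gene names and positions came from GENCODE M21, which matched 21842 of 21995 identifiers. From each related list, at most the 3 genes with the smallest adjusted p among those past the threshold were named in each comparison, with exceptions stated, and some are not reported here. Sex was not a covariate, since the labels do not give it per library.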

Additional observations from a re-analysis of the deposited data

Results flagged for a closer look

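Of 20 checks, 1 for each of the 10 genes in the Old and in the Young group, 2 found a library far from the others by Dixon's criterion. Chance flags about 1 in 20 groups. The highest Old library for Cspg4 was at 44.2 CPM, and the nearest other Old library was at 36.0 CPM, a gap of 0.545 of the range. Without it the log2 fold change of Cspg4 with age was 0.03 (adjusted p = 0.807). The same library had the highest Gpr17 of the Old group, 36.3 CPM, and without it the log2 fold change of Gpr17 was -1.04 (adjusted p = 6.65e-09). The highest Old library for Sox10 was at 179.8 CPM, and the nearest other was at 145.6 CPM, a gap of 0.613 of the range. Without it the log2 fold change of Sox10 was 0.01 (adjusted p = 0.918). That library also had the highest Myrf and Enpp6 and the lowest Pdgfra, Cspg4 and Bmp4 of the Old group, the highest summed neuron markers (7615 CPM) and the lowest summed microglia markers (538.6 CPM). Its Schwann cell markers summed to 75.3 CPM, within the Young range of 67.4 to 87.5 CPM. This library also differed as a whole. Its TMM factor was 0.920, against 0.975 to 1.034 in the other aging libraries. Its 10 highest genes held 15.1% of counts, against 8.0% to 11.9% in the others. Over all genes, 2179 rose and 2200 fell with age without it, and 1839 and 1761 with it. The groups of 3 libraries were not checked.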

How the results depend on the processing

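No paired analysis was possible because the columns carry no replicate numbers. In aging, 4 genes fell and 0 rose in each fit with 1 library left out and with every other scaling, tool and filter on counts. With limma on log2(FPKM + 1), 3 fell, since Enpp6 did not pass (-0.23, adjusted p = 0.0715). With a log2 fold change beyond 1 also required, 0 genes fell in aging and 0 rose in G93a mice. In G93a mice, 1 to 3 genes rose with 1 library left out, and 3 rose when at least 10 counts in every library were required or with limma on log2(FPKM + 1), where Bmp4 passed at 0.86 and 0.53. In 1 fit of all libraries, 1 fell, Olig1 (-0.25). Over all genes in G93a mice, 2641 rose and 2236 fell, against 2570 and 1296 with limma on log2(FPKM + 1). DESeq2 also called the difference of Bmp4 (1.303, adjusted p = 0.0481).

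Changes of sign were limited to values that had not passed the test. In G93a mice, Olig2 was at -0.0023 with RLE factors, -0.0027 with DESeq2, -0.0051 with no filter and -0.025 in 1 fit of all libraries. Myrf was at -0.020 in that fit and -0.064 with limma on log2(FPKM + 1). Nkx2-2 was at 0.0085 with upper quartile factors and with the filter on 10 counts, 0.043 with library totals, 0.00047 with limma-voom and 0.025 with log2(FPKM + 1). The difference of Olig1 was 0.0013 with RLE factors, 0.013 with upper quartile factors, 0.068 with library totals, 0.0019 with DESeq2 and 0.019 with the filter on 10 counts. That of Sox10 was 0.022 with library totals. With 1 library left out, Nkx2-2 ran from -0.086 to 0.015 in aging. In G93a mice, Olig2 then ran from -0.078 to 0.13, Sox10 from -0.070 to 0.15, Myrf from -0.049 to 0.057 and Nkx2-2 from -0.18 to 0.23. The differences ran from -0.041 to 0.051 for Olig1, from -0.15 to 0.067 for Sox10, from -0.021 to 0.088 for Myrf, from -0.032 to 0.36 for Enpp6 and from -0.17 to 0.23 for Nkx2-2. The cause was not tested. Bmp4 is limited by depth, at 1 to 33 counts per library.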

Other observations

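Other regulators of the lineage were counted in the same way. Over all genes tested, 13.5% rose and 12.9% fell with age, and 18.4% rose and 15.5% fell in G93a cords. Of 12 other activators of oligodendrocyte differentiation, 1 rose with age, the thyroid hormone receptor gene Thra (log2 fold change 0.12), and 2 fell, Tcf4 (-0.16) and Smarca4 (-0.14). In G93a cords 1 of the 12 rose, Nkx6-2 (0.56, adjusted p = 0.021). Of 8 genes that hold back differentiation, 0 passed the test in aging. In G93a cords 3 rose, Hey2 (0.95, adjusted p = 0.00198), Egfr (0.95, adjusted p = 0.00858) and Notch1 (0.41, adjusted p = 0.0279), and 2 fell. Of 6 endothelial markers, 2 fell with age, Tek (-0.36) and Flt1 (-0.17), and 0 passed in G93a mice.

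Whether the 10 genes varied together among animals of 1 group was examined over the 8 libraries of the Old and of the Young group, for 45 pairs in each. By an exact two-sided permutation test, 0 of the 90 correlations passed after Benjamini-Hochberg adjustment. The closest was Olig2 with Gpr17 in Young (Pearson r = 0.95, p = 0.000719, adjusted p = 0.0647; Spearman rho = 0.79, p = 0.0279, adjusted p = 0.648; r = 0.90 without 2 libraries). In Old the same pair had r = -0.71 (p = 0.0464, adjusted p = 0.412; rho = -0.69, p = 0.0694, adjusted p = 0.68; r = -0.75 without 2 libraries). The difference between these correlations was not tested.

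Over the 16 aging libraries, with group means removed, the genes whose log2 CPM was most like that of Gpr17 were Ccdc22 (r = 0.87), Crlf3 (0.82) and Med27 (0.82), of 13155 genes. For Enpp6 they were Traf6 (0.90), Diaph2 (0.80) and Zscan21 (0.79). For Pdgfra they were St7 (0.87), Chst3 (0.83) and Kctd9 (0.82), and for Myrf Dscaml1 (0.82), Phlpp1 (0.80) and Map4k4 (0.80). These are the highest values among many genes and share library depth and composition.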
